A study of Mus musculus with 49 samples.

Results

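The 9 transcription factor genes described here, which mark classes of interneurons in the hindbrain and spinal cord, were followed through neural differentiation of mouse embryonic stem cells with and without an antidepressant. They were Pax2, Pax8, Lbx1, Tlx1, Lhx1, Lhx5, Lhx9, Pou4f1 and Pou3f3, and all 9 were found by symbol among the 52550 gene rows of the count table. The set was chosen by the roles of these genes and by measured values in the same libraries, since Tlx1 and Pax8 were picked for being lower with venlafaxine on day 13. The cells were ES-D3, an established mouse line, taken through the neural embryonic stem cell test, a culture assay for chemicals that disturb nervous system development. Embryoid bodies formed until day 3 and then received 2 µM fluoxetine or 90 µM venlafaxine until day 7 or day 13, while controls were collected on days 0, 7 and 13. RNA sequencing gave 49 libraries in 7 groups of 7, with 14059811 to 29225775 counts per library. No genetic change is named for any group, no solvent is named for the controls, and the labels leave unsaid whether replicates are independent cultures, so the p-values measure only the spread between samples, which may be technical. All 7 groups come from 1 cell line.

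In the embryonic hindbrain and spinal cord, neurons arise from bands of progenitors stacked from dorsal to ventral, and each band gives rise to interneurons that carry a characteristic combination of homeodomain and paired-box factors. Pax2, Pax8, Lhx1 and Lhx5 are shared by many inhibitory interneurons, where Pax2 and the Lhx factors help to set the inhibitory transmitter fate. Lbx1 divides the dorsal interneurons into classes with and without it. Among those that bear it, the Tlx genes favour the excitatory fate that Pax2-bearing neurons do not take. Lhx9 marks the most dorsal commissural class, Pou4f1 (Brn3a) marks several dorsal excitatory classes and sensory neurons, and Pou3f3 (Brn1) is a POU factor of neural progenitors and of many young neurons.

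Positions are those of the GENCODE vM21 annotation of build GRCm38. Of the 9 genes, 3 lie on chromosome 19, in the order Pax2 (chr19:44756045-44837871, + strand), Tlx1 (chr19:45150680-45156943, + strand) and Lbx1 (chr19:45232684-45235812, − strand). Pax8 lies at chr2:24420560-24475599 on the − strand, Lhx1 at chr11:84518284-84525535 on the − strand and Lhx5 at chr5:120431699-120441223 on the + strand. Lhx9 lies at chr1:138825186-138848577 on the − strand, Pou4f1 at chr14:104461676-104467999 on the − strand and Pou3f3 at chr1:42695768-42703176 on the + strand. The promoters of 4 genes are shown because they belong to the genes on which the drug comparisons turn, which are Tlx1 and Pax8, chosen for their values with venlafaxine, and Pou4f1 and Pou3f3, which stood on opposite sides of the control with fluoxetine. Each runs from 250 bases before to 50 bases after the RefSeq gene start in build GRCm38.p6, read along the gene, at chr19:45150465-45150764 (+ strand) for Tlx1, chr2:24475550-24475849 (− strand) for Pax8, chr14:104467950-104468249 (− strand) for Pou4f1 and chr1:42695518-42695817 (+ strand) for Pou3f3. Capitals mark matches to the E-box, CANNTG, the sequence class bound by proneural basic helix-loop-helix factors.
Tlx1: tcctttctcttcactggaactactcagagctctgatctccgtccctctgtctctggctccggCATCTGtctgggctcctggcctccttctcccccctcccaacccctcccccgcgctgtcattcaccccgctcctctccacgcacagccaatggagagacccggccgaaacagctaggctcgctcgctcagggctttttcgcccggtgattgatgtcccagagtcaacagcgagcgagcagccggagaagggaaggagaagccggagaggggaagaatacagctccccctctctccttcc
Pax8: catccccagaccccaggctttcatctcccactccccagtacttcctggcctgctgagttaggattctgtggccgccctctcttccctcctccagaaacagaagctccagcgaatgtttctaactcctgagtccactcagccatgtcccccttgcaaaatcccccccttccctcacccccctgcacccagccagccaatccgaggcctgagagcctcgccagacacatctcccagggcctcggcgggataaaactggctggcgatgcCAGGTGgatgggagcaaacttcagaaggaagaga
Pou4f1: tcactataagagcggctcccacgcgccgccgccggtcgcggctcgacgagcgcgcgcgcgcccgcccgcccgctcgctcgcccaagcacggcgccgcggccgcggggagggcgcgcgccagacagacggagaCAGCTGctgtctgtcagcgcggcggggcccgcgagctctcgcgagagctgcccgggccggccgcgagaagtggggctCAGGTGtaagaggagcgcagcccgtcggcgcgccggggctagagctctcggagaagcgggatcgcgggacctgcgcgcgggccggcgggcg
Pou3f3: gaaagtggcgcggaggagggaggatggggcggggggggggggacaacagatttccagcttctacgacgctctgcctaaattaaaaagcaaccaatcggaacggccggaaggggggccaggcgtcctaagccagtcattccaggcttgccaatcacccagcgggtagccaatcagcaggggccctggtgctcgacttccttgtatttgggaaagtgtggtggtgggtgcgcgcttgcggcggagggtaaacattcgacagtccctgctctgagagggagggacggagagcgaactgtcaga
Promoter entries were matched for 7 of the 9 members by symbol, with none used for Lbx1 and Lhx5. An E-box match was present once in the Tlx1 and Pax8 windows and at 2 places in that of Pou4f1, and the Pou3f3 window held none. Both strands were searched, and 72.3% of 32851 RefSeq promoters of the same length held an E-box. The homeodomain core TAATTA, held by 5.29% of those promoters, and the POU octamer ATGCAAAT, held by 1.74%, had no match in any of the 7 windows. A CCAAT box was found at 3 places in the Pou3f3 window and once each in those of Tlx1 and Pax8, against 37.4% of all promoters with at least 1. GC content was 78.3% in the Pou4f1 window and 59.3% to 61.7% in the other 3 shown, beside a median of 52.7% over all promoters. These matches are letters in a window and say nothing on binding.

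Levels are CPM, counts relative to library size, scaled by TMM factors over all 49 libraries, and n is 7 per group throughout. Per kilobase of exon, which allows genes to be compared, the day 13 controls held most of Pou3f3 with 23.6 ± 0.699 CPM per kb (SD), followed by Lhx1 with 15.2 ± 2.43 and Lhx5 with 15.1 ± 3.17. Pax2 held 10.5 ± 3.33 CPM per kb, Pou4f1 8.07 ± 2.42, Lbx1 5.68 ± 2.25, Pax8 3.78 ± 1.95 and Tlx1 1.52 ± 0.963. Lhx9 was lowest with 0.0965 ± 0.0611 CPM per kb. Lhx1 and Lhx5, neighbours in this order, did not differ beyond their spread. In bulk RNA such as this, fewer cells of a type and less RNA per cell cannot be told apart.

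Between day 0 and day 7 of the untreated course the factors appeared. Of the 8 members with enough counts to test, 8 rose (edgeR quasi-likelihood F test, Benjamini-Hochberg adjusted p under 0.05), where 45.3% of all tested genes rose. Pou3f3 went from 0.0767 to 0.622 CPM on day 0 (median 0.34) to 169 to 233 CPM on day 7 (median 213). Lhx1, a LIM factor of inhibitory classes, went from 0 to 0.32 CPM (median 0.16) to 40.0 to 69.3 CPM (median 61.5). Pax2 went from 0 to 0.171 CPM (median 0.12) to 17.8 to 31.5 CPM (median 28.1). Every day 7 control lay above every day 0 control for these 3 genes. The share of all genes so separated was not computed, and 88.8% of all tested genes were called in either direction. On day 0 the 7 libraries together held only 12 counts of Pax2, 16 of Lbx1, 20 of Lhx1, 21 of Lhx5, 25 of Tlx1 and 39 of Pou3f3, so their fitted changes depend on the small count added to each value.

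Pax8 and Pou4f1 were already counted in the stem cells, with at least 24 and 97 counts in every day 0 library. Pax8, a paired-box factor of spinal inhibitory neurons, thyroid and kidney, stood at 1.51 to 2.84 CPM on day 0 (median 2.00) and at 8.51 to 10.8 CPM on day 7 (median 9.75), a log2 fold change of 2.25 ± 0.322 (SE; adjusted p = 1.32e-06, edgeR). Pou4f1 stood at 7.44 to 11.4 CPM on day 0 (median 8.84) and at 12.5 to 27.0 CPM on day 7 (median 21.7), a log2 fold change of 1.18 ± 0.208 (adjusted p = 2.1e-05, edgeR). Neither gene overlapped between the days, a separation whose share over all genes was not computed. The row of Pax8 may hold reads of Gm13415, whose exons overlap it on the opposite strand, since no source used here gives the strand setting of the counting. Gm13415 itself stayed at or under 0.405 CPM in all libraries of all groups.

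From day 7 to day 13 some untreated members rose and others did not. Of 8 tested members 4 rose, a share near the 42.1% of all genes that rose, and 1 fell, beside 40.9%. In either direction 83% of all tested genes were called. Among the inhibitory class factors, Pax2 rose from a median of 28.1 CPM to 37.9 to 88.1 CPM (median 51.3), a log2 fold change of 1.11 ± 0.163 (adjusted p = 2.28e-06, edgeR). Pax8 stood at 8.84 to 41.1 CPM (median 16.3) on day 13, a log2 difference of 1.24 ± 0.247, and its day 13 controls varied widely, with a coefficient of variation of 51.6%. It counts among the 4, but Pax8 and Tlx1 were chosen by comparison with these same day 13 controls, so both are given without a p in every comparison that uses them. Lhx5 rose from 17.6 to 25.1 CPM (median 22.8) to 28.7 to 54.8 CPM (median 39.9), a log2 fold change of 0.88 ± 0.118 (adjusted p = 4.02e-07, edgeR).
Its close relative Lhx1 stood at 40.0 to 69.3 CPM on day 7 and 49.8 to 75.8 CPM on day 13, a log2 difference of 0.09 ± 0.106 (adjusted p = 0.419, edgeR). Its ranges on both days overlapped widely, and the difference between the courses of the 2 LIM genes was not tested.

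Of the other factors, Pou4f1 rose from 12.5 to 27.0 CPM to 19.4 to 49.4 CPM (median 40.4; log2 fold change 0.87 ± 0.183, adjusted p = 0.000175, edgeR). Lbx1 stood at 5.67 to 18.6 CPM on day 7 (median 14.6) and 5.63 to 22.9 CPM on day 13 (median 15.1), a log2 difference of -0.01 ± 0.259 (adjusted p = 0.974, edgeR). Tlx1 stood at 1.18 to 5.11 CPM on day 7 (median 3.91) and 1.25 to 6.43 CPM on day 13 (median 2.41), a log2 difference of -0.02 ± 0.341. For Lbx1 and Tlx1 the ranges of both days lay almost on top of each other, and the sign of these small differences turned when other scalings were used or single libraries left out. Pou3f3 fell from 169 to 233 CPM to 167 to 182 CPM (median 175; -0.24 ± 0.0546, adjusted p = 0.00037, edgeR). Lhx9 was not tested over this course, and stood at 0.123 to 0.564 CPM on day 7 and 0.343 to 1.68 CPM on day 13.

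**Figure D1:**
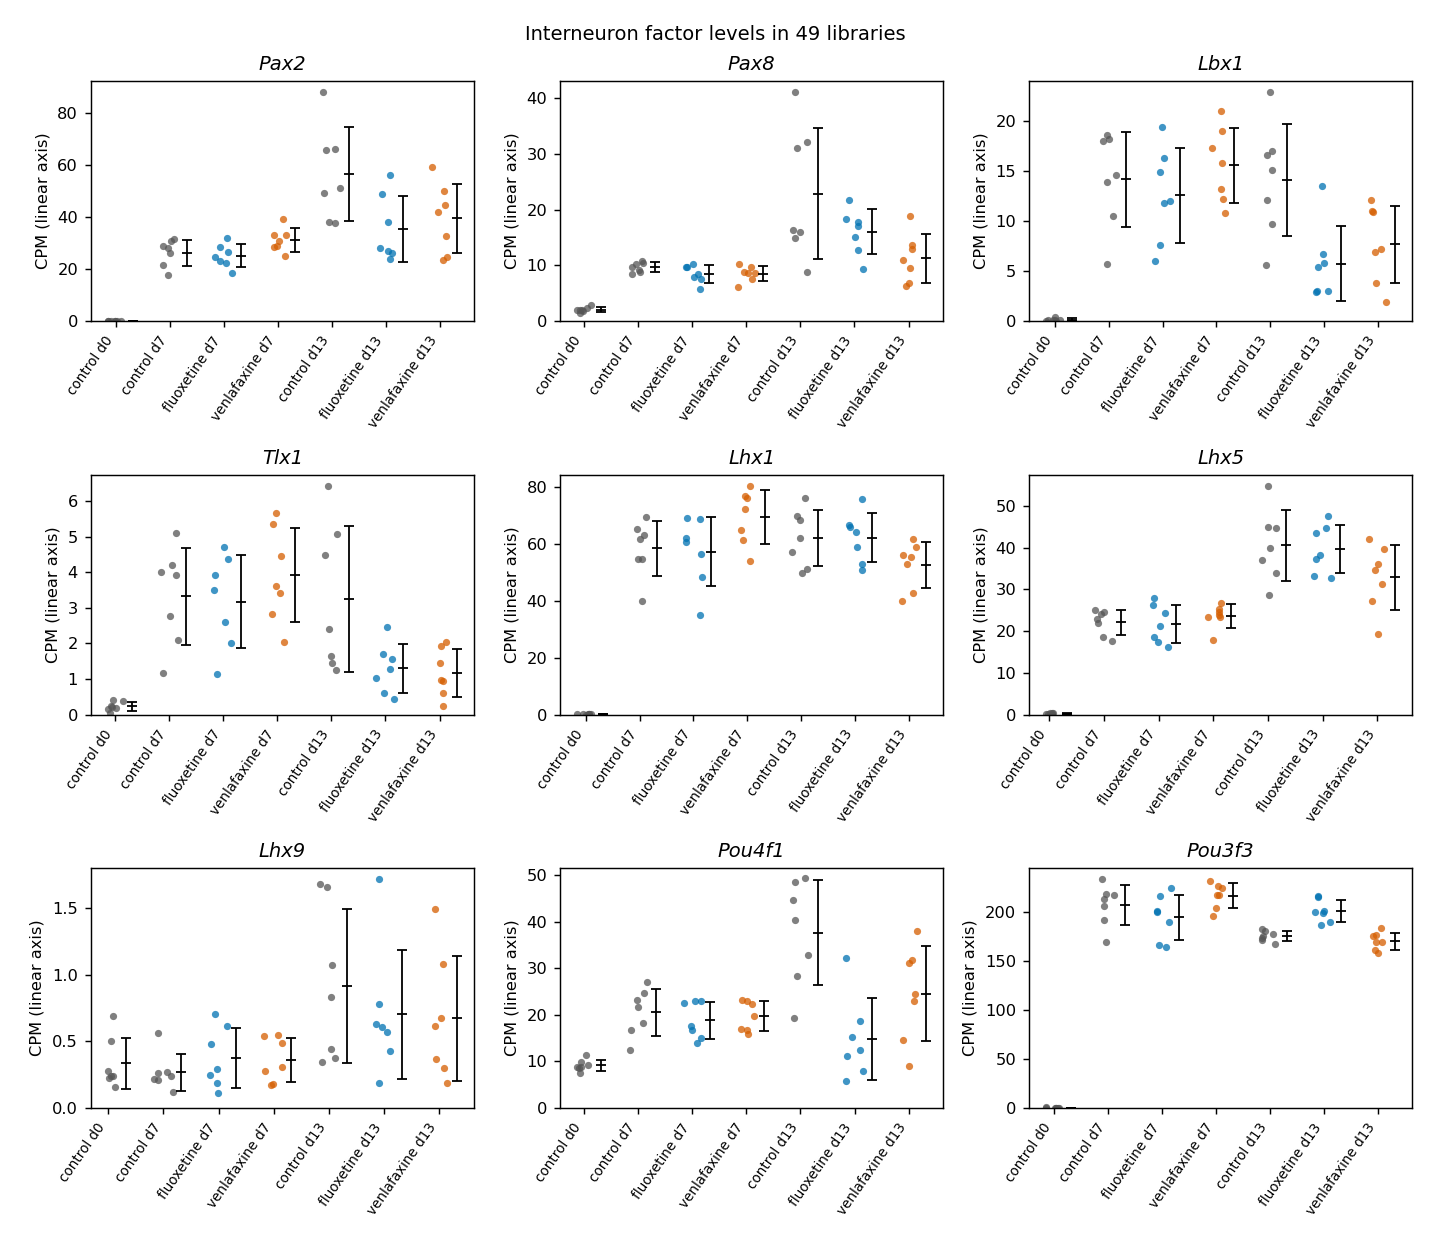
CPM on a linear axis in each of the 49 libraries, with 1 panel per gene and 7 libraries per group (grey control, blue fluoxetine, orange venlafaxine); the horizontal tick and bar beside the points are the mean and SD. Pou3f3 in the day 13 fluoxetine group lies between 187 and 216 CPM, above all day 13 controls at 167 to 182 CPM, whereas Tlx1 and Pou4f1 in both drug groups extend below their controls.

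The genes around these factors in the same classes also moved over the untreated course, during which 42.1% of all genes rose and 40.9% fell. Of 9 tested dorsal progenitor genes 8 fell and 0 rose from day 7 to day 13, among them Neurog1, a proneural factor of dorsal excitatory classes (-2.59 ± 0.166, adjusted p = 1.74e-12, edgeR), and Pax7, a dorsal patterning factor (-3.23 ± 0.238, adjusted p = 1.63e-11, edgeR). Of 9 ventral progenitor genes 2 rose and 5 fell. Of 14 ventral interneuron genes 11 rose and 2 fell, with Shox2, a factor of excitatory V2 and rhythm-related neurons, higher by 5.41 ± 0.0893 and Gata3, a factor of the inhibitory V2b class, by 3.20 ± 0.0634. All 4 inhibitory transmitter genes rose, from 1.95 ± 0.137 for Slc6a5, the glycine transporter of inhibitory terminals, to 3.42 ± 0.152 for Gad1, an enzyme that makes GABA. The dorsal excitatory list gave 4 genes that rose and 2 that fell of 9 tested, and Tlx3, the paralog of Tlx1, stood at 5.56 ± 2.63 CPM on day 7 and 7.47 ± 3.63 CPM on day 13 (0.43 ± 0.329, adjusted p = 0.229, edgeR).

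Lists for other tissues that use these factors were summed on day 13. The kidney factor list (8 genes) summed to 25.9 to 33.0 CPM in the controls, 26.4 to 38.0 CPM with fluoxetine and 21.2 to 28.0 CPM with venlafaxine, a sum above the mean level of Pax8. Most of it came from Ret, a receptor also used by neurons, at 12 to 15.8 CPM in the group means, and Eya1 at 7.68 to 9.63 CPM, while Cdh16 and Wt1, of kidney tubules and podocytes, had group means of at most 0.00999 and 0.375 CPM. The thyroid list (6 genes) summed to 1.56 to 2.5, 1.44 to 3.12 and 1.75 to 3.01 CPM in the same order, with the hormone precursor Tg at a mean of at most 0.138 CPM. The sensory ganglion list (7 genes), of interest for Pou4f1, summed to 8.98 to 11.1, 9.08 to 13.6 and 9.21 to 12.0 CPM. The splenic mesoderm list (4 genes), of interest for Tlx1, summed to 1.02 to 1.72, 1.23 to 2.78 and 1.09 to 2.35 CPM. The otic list (5 genes) summed to 7.16 to 13.7, 8.72 to 14.5 and 10.3 to 17.6 CPM. The list of endoderm and organizer genes (8) summed to 35.7 to 59.4, 40.3 to 55.9 and 45.9 to 69.8 CPM. Of its 6 tested genes 2 rose with venlafaxine, Eomes and Gata6, where 11.6% of all genes rose. The part of these tissues in the members' values was not tested. Within the neural lists, Ptf1a, the defining progenitor factor of dorsal inhibitory neurons, had a mean of at most 0.0631 CPM, and Gabra6, a marker of cerebellar granule cells, had no count in any day 13 library. The deposited label describes neural stem cell cultures, and 12 general neuron genes summed to 6570 to 9010 CPM in the day 13 controls.

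On day 7, after 4 days of exposure, neither drug gave a call among the members. With fluoxetine 0 of 8 tested members passed the edgeR test and DESeq2 also called 0, beside 0.0513% of all genes called in either direction. An unadjusted edgeR p under 0.05 was held by 1424 of 15601 genes and by 0 of these members. Their log2 differences from control ran from -0.19 ± 0.108 for Pax8 to -0.03 ± 0.114 for Lhx5, all 8 below 0, with a median of -0.08 beside 0.002 over all tested genes. Tlx1 stood at 1.14 to 4.72 CPM with fluoxetine (median 3.50) and 1.18 to 5.11 CPM in the controls (median 3.91), and Pou4f1 at 14 to 23.1 CPM (median 17.6) and 12.5 to 27.0 CPM (median 21.7). The fluoxetine and control groups overlapped for every member on that day. The comparison of venlafaxine with control was used to choose members on day 13 and is therefore only described here. In it 0 of 8 members were past the edgeR threshold and DESeq2 called 0, beside 3.84% of all genes. An unadjusted edgeR p under 0.05 was held by 0 members, beside 2693 of 15601 genes. The values with venlafaxine ran from -0.18 ± 0.109 for Pax8 to 0.25 ± 0.137 for Lhx1, which stood at 53.8 to 80.2 CPM (median 72.2) beside controls at 40.0 to 69.3 CPM. Directly compared, the drugs differed in 0 of 8 members by edgeR and 0 by DESeq2, beside 0.147% of all genes called. At an unadjusted edgeR p under 0.05 were 2 members, beside 1307 of 15601 genes. Those 2 were Pax2, lower with fluoxetine by -0.31 ± 0.126 (adjusted p = 0.472, edgeR), and Pou3f3, lower by -0.15 ± 0.0681 (adjusted p = 0.538, edgeR).

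On day 13, after 10 days of exposure, Pou3f3 rose with fluoxetine, and Pou4f1, Lbx1, Tlx1 and Pax2 had lower values that did not pass the test. Pou3f3 was measured at 187, 201, 199, 216, 200, 215 and 190 CPM in the 7 fluoxetine libraries (replicates 1, 2, 4, 5, 6, 7 and 8) and at 180, 177, 173, 182, 171, 175 and 167 CPM in the 7 controls of the same numbers. Every fluoxetine library lay above every control, and 0.311% of all tested genes had no overlap between these groups in either direction. The log2 fold change was 0.21 ± 0.0375 (adjusted p = 0.0461, edgeR), which made 1 of 9 members called, beside 0.116% of all genes in either direction and 0.061% higher. The size held at 0.192 to 0.232 when any 1 of the 21 day 13 libraries was left out, but the adjusted p then ran from 0.0124 to 0.131. The call was lost without control replicate 1, 2, 5, 6, 7 or 8, without fluoxetine replicate 5, 6 or 7, and without venlafaxine replicate 2, 3, 4 or 7, which share the fit. Without fluoxetine replicates 5, 6 and 7 together, which stood apart from the other 4 in an earlier analysis of these libraries, Pou3f3 was higher by 0.156 on the log2 scale (adjusted p = 0.76, edgeR) and no gene of the table was called.

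Pou4f1 was measured with fluoxetine at 11.1, 18.8, 32.3, 5.89, 7.95, 12.5 and 15.2 CPM, in the same order of replicates, and in the controls at 48.6, 32.8, 19.4, 40.4, 49.4, 28.3 and 44.7 CPM. In all, 6 of 7 fluoxetine libraries were below the lowest control, and replicate 4 was the exception. Its log2 difference of -1.33 ± 0.326 gave an adjusted p of 0.0682 with edgeR and 0.0134 with DESeq2. Without fluoxetine replicate 4 the difference was -1.65 (adjusted p = 0.0194, edgeR), and the range over all single omissions was -1.65 to -1.20. Without fluoxetine replicates 5, 6 and 7 it was -0.956 (adjusted p = 0.945, edgeR).

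Lbx1 was measured with fluoxetine at 2.98, 6.71, 13.5, 3.00, 2.95, 5.38 and 5.78 CPM and in the controls at 22.9, 12.1, 5.63, 15.1, 16.6, 9.71 and 17 CPM. All 7 fluoxetine libraries lay below the control median and 4 lay below the lowest control, which was replicate 4. The log2 difference was -1.28 ± 0.382 (adjusted p = 0.119, edgeR), and it was -1.65 (adjusted p = 0.0284, edgeR) without fluoxetine replicate 4 and -0.963 (adjusted p = 0.977, edgeR) without replicates 5, 6 and 7. Tlx1 was measured with fluoxetine at 0.61, 1.56, 2.46, 0.445, 1.02, 1.71 and 1.27 CPM and in the controls at 6.43, 2.41, 1.25, 1.65, 5.08, 1.46 and 4.48 CPM. Control replicates 1, 6 and 8 stood above all fluoxetine libraries, while the other 4 controls lay among them. Its log2 difference was -1.31 ± 0.427. Pax2 stood at 23.9 to 56.4 CPM (median 28.3) beside controls at 37.9 to 88.1 CPM (median 51.3), with 4 of 7 libraries below the lowest control and a log2 difference of -0.66 ± 0.236 (adjusted p = 0.18, edgeR).

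The remaining members overlapped their controls widely with fluoxetine and did not pass the test. Pax8 stood at 9.39 to 21.8 CPM (median 17.1), inside the control range of 8.84 to 41.1 CPM (log2 difference -0.50 ± 0.288). Lhx1 stood at 50.6 to 75.7 CPM (median 64.0; 0.02 ± 0.109) and Lhx5 at 32.7 to 47.6 CPM (median 38.2; -0.02 ± 0.146), both inside the ranges of their controls. Lhx9 stood at 0.19 to 1.72 CPM (median 0.605; -0.39 ± 0.455), a level at which a library holds few counts. In all, 5 of 9 members had an unadjusted edgeR p under 0.05, beside 2312 of 16397 tested genes. Tlx1 is among the 5, and its p is not read, since it was chosen against these controls. Of the 9 differences 7 were negative, with a median of -0.50, the value of Pax8, beside -0.004 over all tested genes. Tlx1 and Pax8, chosen against these controls, are among the 7, so no test is drawn from this count or median.

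**Figure D2:**
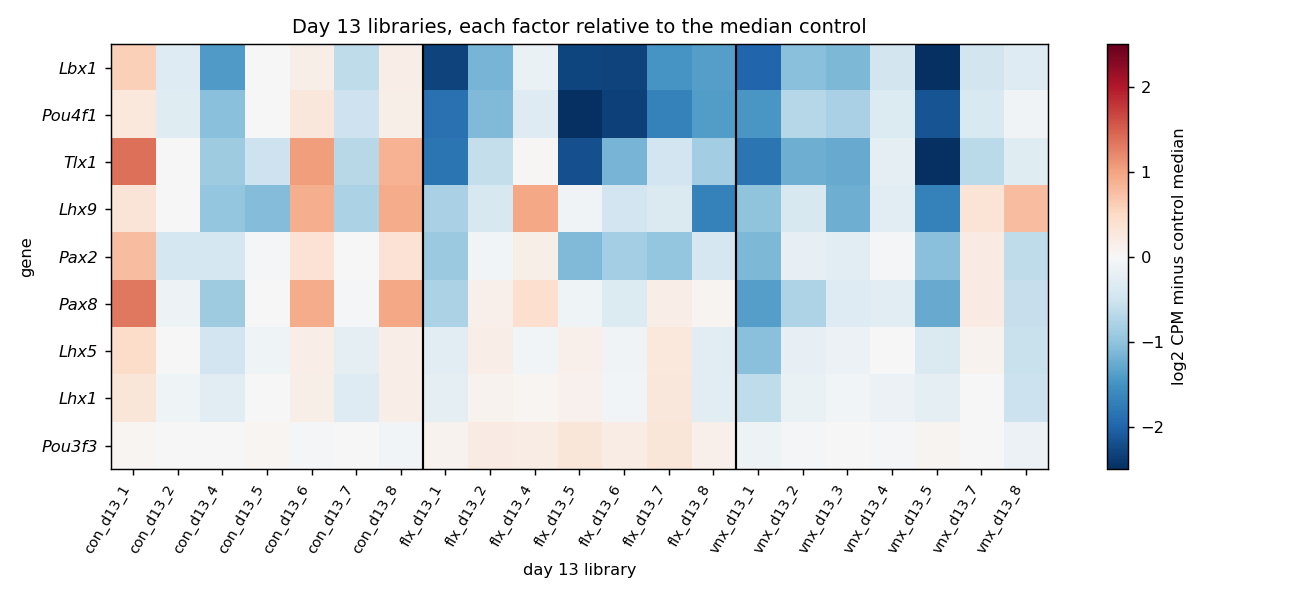
Log2 CPM of each member in each of the 21 day 13 libraries minus the median of the 7 controls (blue lower, red higher; vertical lines part control, fluoxetine and venlafaxine; numbers are the replicate labels). Control replicate 1 is red for Tlx1 and Pax8, fluoxetine replicates 1, 5 and 6 and venlafaxine replicate 5 are the bluest columns for Pou4f1, and these with venlafaxine replicate 1 for Lbx1, and the Pou3f3 row is pale red in all 7 fluoxetine libraries.

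With venlafaxine on day 13, the comparison on which Tlx1 and Pax8 were selected, all 9 differences were below 0 (median -0.51, beside -0.005 over all tested genes) and 2 of 9 members, these same 2, were past the edgeR threshold, where 11.3% of all genes were lower; no test is drawn from this. Tlx1 was measured at 0.608, 0.969, 0.949, 2.05, 0.236, 1.46 and 1.93 CPM in replicates 1, 2, 3, 4, 5, 7 and 8. Of these, 4 lay below the lowest control, and all 7 below the control median of 2.41 CPM, for a log2 difference of -1.42 ± 0.428. Pax8 was measured at 6.26, 9.49, 13.0, 13.6, 6.75, 18.8 and 11 CPM, beside controls at 41.1, 14.9, 8.84, 16.3, 31.1, 15.9 and 32.1 CPM. Only 2 of 7 venlafaxine libraries lay below the lowest control, and control replicates 1, 6 and 8 lay far above all others (log2 difference -1.01 ± 0.293). Lbx1, the next member by size outside the threshold, stood at 1.89 to 12.1 CPM (median 7.24), a log2 difference of -0.86 ± 0.373.
These 2 values past the threshold rested on single libraries. In all, 0 members were past the threshold when control replicate 1, 6 or 8 was left out, and 0 also without venlafaxine replicate 1. Leaving out venlafaxine replicate 8 kept Tlx1 alone. Without any 1 library the log2 difference of Tlx1 ran from -1.62 to -1.17 and that of Pax8 from -1.17 to -0.809, a direction that the choice of these genes fixed. No filter on low counts gave 0 members past the threshold, and the groups overlapped for all 9 members, where 1.48% of all genes did not overlap.

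The other members with venlafaxine lay closer to control. Pou4f1 stood at 8.93 to 38.1 CPM (median 24.6; log2 difference -0.60 ± 0.32) and Pax2 at 23.5 to 59.5 CPM (median 42.1; -0.51 ± 0.235). Lhx1 stood at 39.9 to 61.7 CPM (median 55.1; -0.23 ± 0.11), Lhx5 at 19.4 to 42.2 CPM (median 34.7; -0.29 ± 0.147) and Lhx9 at 0.189 to 1.49 CPM (median 0.612; -0.42 ± 0.452). Pou3f3 stood at 158 to 183 CPM (median 169; -0.03 ± 0.0375), beside controls at 167 to 182 CPM. Replicates 1 and 5 were the lowest of the venlafaxine group for Lbx1, Tlx1, Pax8, Pax2 and Pou4f1. Summed levels of 12 general neuron genes were 5060 to 7510 CPM with venlafaxine and 6600 to 8240 CPM with fluoxetine, beside 6570 to 9010 CPM in the controls, and 9 of the 12 fell with venlafaxine, where 11.3% of all genes fell. Dividing progenitor genes (10) summed to 1980 to 2660 CPM with venlafaxine beside 1460 to 2400 CPM, and 5 of the 10 rose, where 11.6% of all genes rose. Glial genes (8) summed to 1440 to 1870 CPM with venlafaxine beside 1030 to 1550 CPM, and 6 of the 8 rose and 1, Gfap, fell. The part of these shifts in the lower factor values was not tested.

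**Figure D3:**
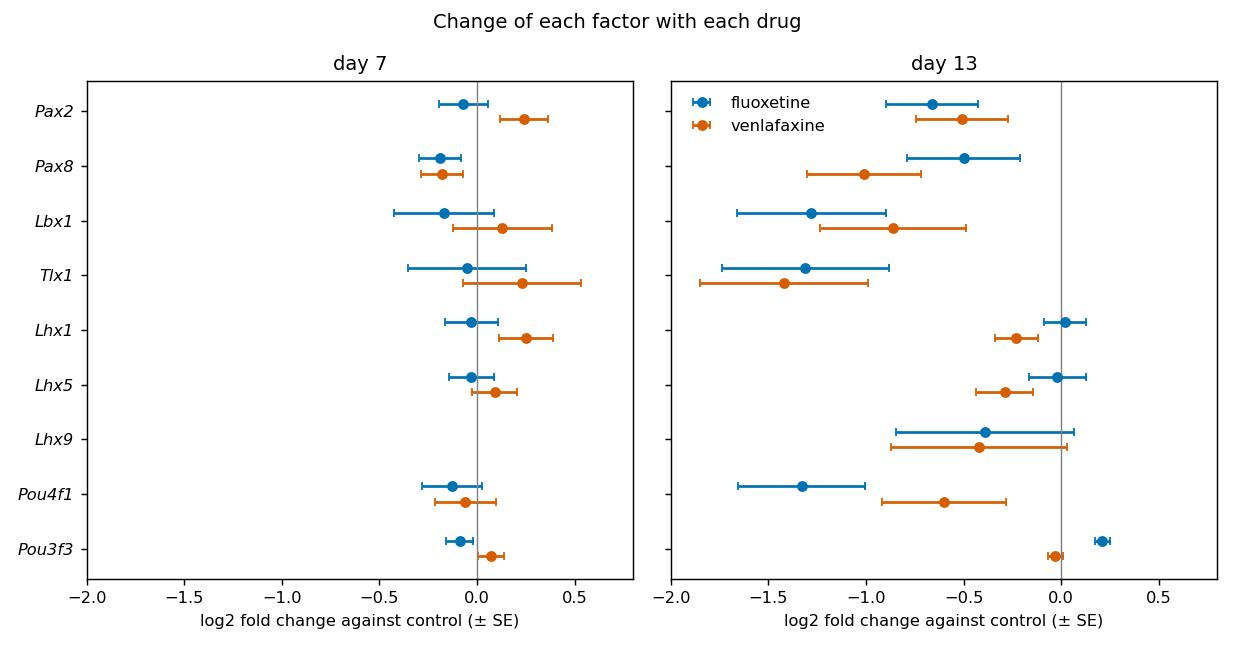
Log2 fold change against the control of the same day with its SE for each member, fluoxetine in blue and venlafaxine in orange, 7 libraries per group and Lhx9 not tested on day 7. On day 7 all points lie between -0.19 and 0.25, and on day 13 Lbx1, Tlx1 and Pou4f1 reach -0.60 to -1.42 while Pou3f3 with fluoxetine lies at 0.21.

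The 7 day 13 controls entered the comparison of each drug, so their shared direction is not independent, and the direct comparison of the drugs takes its fold change from the drug libraries alone, though the controls share in its estimate of spread. Fluoxetine and venlafaxine differed on day 13 in 1 of 9 members, Pou3f3, which was higher with fluoxetine by 0.25 ± 0.0375 on the log2 scale (adjusted p = 0.00157, edgeR), beside 5.14% of all genes higher with fluoxetine. Here too no library of one drug overlapped the other, as for 2.16% of all genes. The difference was 0.225 to 0.265 without any 1 library and passed in all of those 21 fits, and it was 0.19 (adjusted p = 0.0623, edgeR) without fluoxetine replicates 5, 6 and 7. Of 7 tested paralogs of the members, 2 were higher with fluoxetine and 0 lower. They were Pou3f2 (0.31 ± 0.0801, adjusted p = 0.0227, edgeR) and Pou3f4 (0.36 ± 0.101, adjusted p = 0.0278, edgeR). Against control, fluoxetine gave 0 calls among the 7, with 3 above 0 and 4 below. At an unadjusted edgeR p under 0.05, 3 were higher and 3 lower. Pou3f2 stood at 0.22 ± 0.0799 (adjusted p = 0.182, edgeR) and Pou3f4 at 0.30 ± 0.101 (adjusted p = 0.158, edgeR). The lower ones were Tlx3 at -1.38 ± 0.468 (adjusted p = 0.161, edgeR), Pou4f2 at -1.02 ± 0.416 (adjusted p = 0.252, edgeR) and Lhx2 at -0.65 ± 0.272 (adjusted p = 0.267, edgeR). Between the drugs, Pou4f1 was lower with fluoxetine by -0.73 ± 0.328 (adjusted p = 0.133, edgeR), and by -1.05 (adjusted p = 0.0416, edgeR) without fluoxetine replicate 4. Lhx1 was higher with fluoxetine by 0.25 ± 0.11 (adjusted p = 0.126, edgeR) and Lhx5 by 0.27 ± 0.147 (adjusted p = 0.212, edgeR). Lbx1 and Pax2 differed by -0.43 ± 0.387 and -0.15 ± 0.238. For Tlx1 and Pax8, which were chosen on venlafaxine values, the differences were 0.11 ± 0.461 and 0.51 ± 0.296 and are given without a test. These p-values do not show that the drugs act alike on any member.

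The change of effect between the days was tested within 1 fit of the 42 libraries of days 7 and 13. For fluoxetine 0 of 9 members passed by edgeR and 0 by DESeq2, where 0.277% of all genes were called. An unadjusted edgeR p under 0.05 was held by 5 members, beside 2200 of 16964 genes. These 5 include Tlx1, whose p is not read, since it was chosen against the day 13 controls. The shifts were -1.20 ± 0.380 for Pou4f1 (adjusted p = 0.134, edgeR) and -1.10 ± 0.474 for Lbx1 (adjusted p = 0.291, edgeR), and Pou3f3 shifted by 0.30 ± 0.0831 (adjusted p = 0.0805, edgeR). Tlx1 shifted by -1.25 ± 0.536. For venlafaxine, described only, all 9 shifts were negative and 1 member, Tlx1 with -1.64 ± 0.535, was past the threshold, where 4.89% of all genes were.

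Ordered by group means, Tlx1 ran from 3.91 CPM (venlafaxine day 7) through 3.32 (control day 7), 3.25 (control day 13) and 3.18 CPM (fluoxetine day 7) to 1.30 (fluoxetine day 13), 1.17 (venlafaxine day 13) and 0.229 CPM (day 0). Only the steps below fluoxetine day 7 and below venlafaxine day 13 were wider than the larger SD of the neighbouring groups. Lbx1 had the same pair of low day 13 drug groups, at 7.68 CPM with venlafaxine and 5.75 CPM with fluoxetine, under a block of 4 groups between 12.6 and 15.6 CPM that did not differ beyond their spread. Pou4f1 was highest in the day 13 controls at 37.7 CPM, a step wider than the SDs above venlafaxine day 13 at 24.6 CPM, and the fluoxetine day 13 mean of 14.8 CPM was lower than all 3 day 7 means of 18.8 to 20.6 CPM. For Lhx5 the 3 day 13 groups at 33.0 to 40.6 CPM stood above the 3 day 7 groups at 21.7 to 23.6 CPM. In Lhx1 the 6 groups of days 7 and 13 lay between 52.4 and 69.3 CPM with no step wider than the SDs. Pax2 descended from 56.7 CPM in day 13 controls to 25.2 CPM in day 7 fluoxetine, and Pou3f3 from 216 CPM (venlafaxine day 7) to 170 CPM (venlafaxine day 13), in steps no wider than the SDs. Pax8 had 1 such wide step among the treated and untreated days, from 16 CPM with fluoxetine to 11.3 CPM with venlafaxine on day 13. Lhx9 had none, from 0.916 CPM in day 13 controls down to 0.268 CPM in day 7 controls.

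Within the groups of day 13 the members varied together in sets. Pearson's r was taken over the 21 libraries on log2 CPM as deviations from the group means, as a description, since all genes of a library share its depth and cell makeup. Lbx1 and Pou4f1 were closest (r = 0.96), followed by Lhx1 and Lhx5 (0.93) and by Lbx1 and Tlx1 (0.90). Pou4f1 and Tlx1 gave 0.87. The paired-box genes Pax2 and Pax8 gave 0.82, as did Tlx1 and Pax8. Lhx1 was less tied to Lbx1 (0.41) and Pou4f1 (0.29), and Pou3f3 had negative values with Pou4f1 (-0.34), Tlx1 (-0.25) and Lbx1 (-0.18) but positive ones with Lhx1 (0.60) and Lhx5 (0.52).

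**Figure D4:**
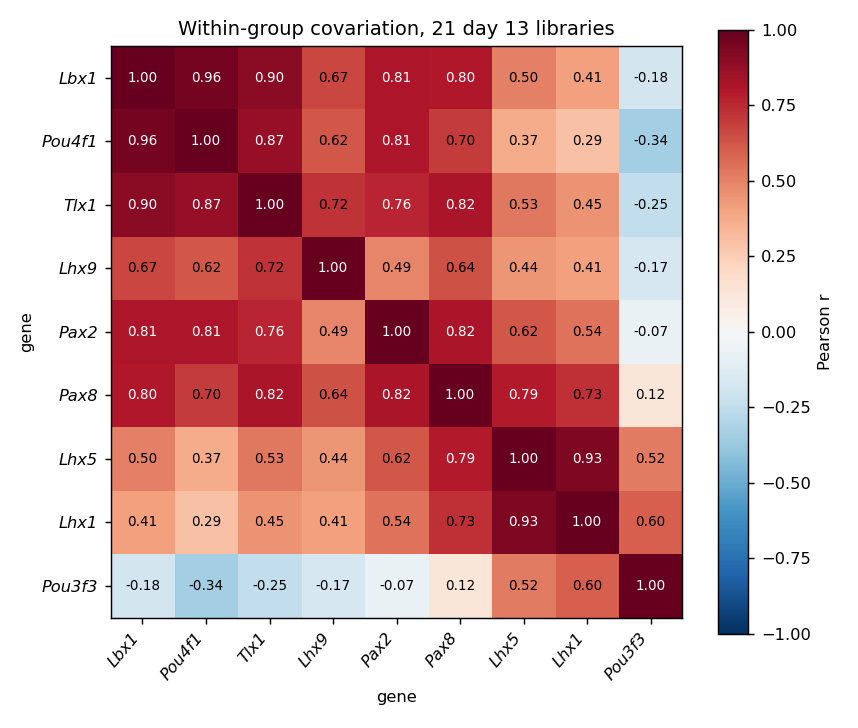
Pearson r between members across 21 day 13 libraries, on log2 CPM minus the mean of the library's group (red positive, blue negative). Lbx1, Pou4f1 and Tlx1 form a block at 0.87 to 0.96, Lhx1 and Lhx5 a pair at 0.93, and the Pou3f3 row is negative against that block.

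The search for similar genes took those tested on day 13 with a mean of at least 2 CPM. Gm-number, Rik, accession, RP-number, mitochondrial and repeated symbols were left out. The genes most like Lbx1 in these 21 libraries were Skor1 (r = 0.98), Uncx (0.98) and Tlx3 (0.97). Pou4f1 was closest to Tlx3 (0.97), Skor1 (0.96) and Lbx1 itself (0.96), and Tlx1 to Cntn2 (0.94), Robo3 (0.93) and Pax3 (0.93). Robo3 and Cntn2 encode surface proteins of commissural axons, and Pax3 a dorsal progenitor factor. The genes most like Pax2 were Cdh18 (0.94), Auts2 (0.93) and Unc5c (0.93), and those most like Pax8 were Scrt2 (0.95), Npy (0.94) and Robo1 (0.94). Lhx1 was closest to Mir124a-1hg (0.96), a host transcript of the neuronal miRNA miR-124, and then Zfhx4 (0.94) and Mir124-2hg (0.94). Lhx5 was closest to Pdzrn4 (0.96), Rundc3a (0.96) and Sema6c (0.95), and Pou3f3 to Mn1 (0.88), Ptpn1 (0.87) and Por (0.87). Lhx9 was below the level set for this search.

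Other genes of the same interneuron classes were read on day 13 from lists chosen with earlier results of these data known. With fluoxetine 0 of 9 dorsal excitatory genes were called by edgeR (5 lower and 1 higher at an unadjusted p under 0.05), with a median log2 difference of -0.73. Phox2a, a factor of hindbrain noradrenergic and motor neurons, was at -1.37 ± 0.352 (adjusted p = 0.0751, edgeR), and Tlx3 was at -1.38 ± 0.468 (adjusted p = 0.161, edgeR), from 7.47 ± 3.63 CPM in the controls to 2.84 ± 2.26 CPM. On the ventral side 1 of 14 interneuron genes rose, Lhx4, a LIM factor of motor neurons and V2 interneurons (0.45 ± 0.0836, adjusted p = 0.0461, edgeR), with 8 higher and 2 lower at an unadjusted p under 0.05 and a median of 0.44. Among 9 ventral progenitor genes 1 rose, Nkx6-1, a ventral patterning factor (0.72 ± 0.122, adjusted p = 0.0461, edgeR). The dorsal inhibitory list had 0 of 6 called (3 lower at an unadjusted p under 0.05) and a median of -0.28, and the 4 inhibitory transmitter genes had 0 called, 0 at an unadjusted p under 0.05 and values from -0.21 to 0.04. Of the 3 excitatory transmitter genes 0 were called (1 higher and 1 lower at an unadjusted p under 0.05). Slc17a6, a vesicular glutamate transporter, stood at 45.5 ± 13.2 CPM beside 74.1 ± 16 CPM (-0.69 ± 0.175, adjusted p = 0.0724, edgeR), and Slc17a8, another, at 44.4 ± 14.4 CPM beside 29.9 ± 8.27 CPM (0.59 ± 0.212, adjusted p = 0.184, edgeR). Over all tested genes 0.116% were called in either direction and 0.061% higher, and the median was -0.004. An unadjusted edgeR p under 0.05 was held by 2312 of these 16397 genes.
The spinal axial list of 5 Hox genes summed to 5.72 to 30.3 CPM with fluoxetine and 21.7 to 42.1 CPM in the controls, and its most abundant gene Hoxb8 stood at 12.8 ± 7.85 CPM beside 29.6 ± 6.81 CPM (log2 difference -1.20 ± 0.338, adjusted p = 0.104, edgeR). With venlafaxine that list summed to 7.08 to 47.9 CPM. The hindbrain axial list (7 genes) summed to 224 to 322 CPM with venlafaxine, 304 to 387 CPM with fluoxetine and 261 to 445 CPM in the controls. Of its 6 tested genes 2 were called lower with venlafaxine, where 11.3% of all genes were lower, and 0 with fluoxetine. The part of axial position in the lower factor values was not tested for either drug.

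Over all tested genes 11.3% fell and 11.6% rose with venlafaxine on day 13. All 4 inhibitory transmitter genes fell, from -0.38 ± 0.134 for Slc32a1, the vesicular transporter of GABA and glycine (adjusted p = 0.0447, edgeR), to -0.50 ± 0.169 for Slc6a5 (adjusted p = 0.0406, edgeR). In the dorsal excitatory list 2 of 9 fell, Phox2a (-1.15 ± 0.345, adjusted p = 0.0257, edgeR) and Ebf3, a factor of early neuron differentiation (-0.60 ± 0.196, adjusted p = 0.0345, edgeR). In the dorsal inhibitory list 2 of 6 fell, Gbx2 (-0.65 ± 0.129, adjusted p = 0.00584, edgeR) and Bhlhe22 (-0.43 ± 0.132, adjusted p = 0.0275, edgeR). Of 14 ventral interneuron genes 1 fell, Foxd3, a factor best known from the neural crest (-0.59 ± 0.183, adjusted p = 0.0291, edgeR), a share near that of all genes, and the list median was 0.00. Of the 7 tested paralogs of the members, 1 rose, again near the share of all genes. It was Pou3f1, a POU factor like Pou3f3 (0.22 ± 0.0757, adjusted p = 0.0434, edgeR), and it stood at 0.28 ± 0.0757 with fluoxetine (adjusted p = 0.0914, edgeR). Tlx2 and Lbx2, the other paralogs of Tlx1 and Lbx1, had too few counts to test.

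**Figure D5:**
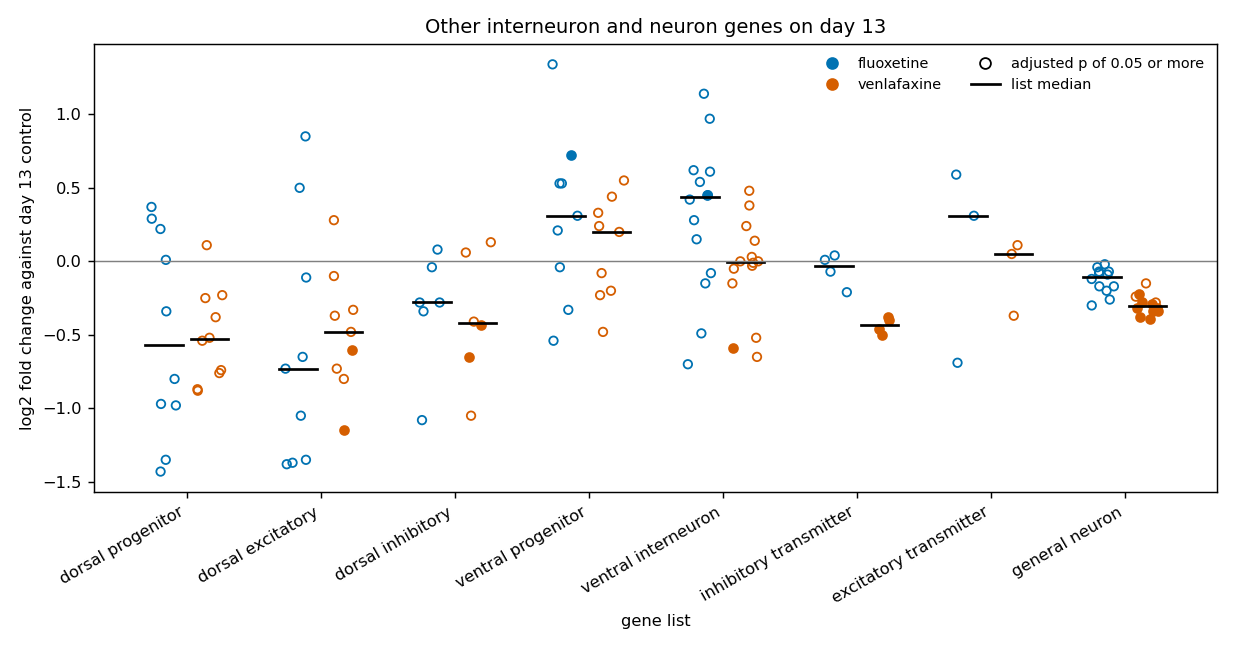
Log2 fold change against the day 13 control for genes of 8 lists, fluoxetine in blue and venlafaxine in orange, filled where the adjusted p is under 0.05 and open otherwise, with a black bar at each list median. The fluoxetine medians are -0.73 for dorsal excitatory and 0.44 for ventral interneuron genes, and the filled venlafaxine points include all 4 inhibitory transmitter genes and 9 of 12 general neuron genes.

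Transcripts beside the members were read for the same libraries. Pantr1, a long noncoding RNA that starts 926 bases from Pou3f3 on the opposite strand, rose with Pou3f3 from day 0 to day 7 and then fell by 0.79 on the log2 scale (SE 0.0602, adjusted p = 7.19e-12, edgeR) to 46.6 to 57.1 CPM in day 13 controls. With fluoxetine it stood at 48.9 to 62.7 CPM, and it differed between the drugs by 0.24 ± 0.0626 (adjusted p = 0.0229, edgeR), higher with fluoxetine. Lhx1os, which starts 125 bases from Lhx1 on the opposite strand, rose from day 7 to day 13 (0.87 ± 0.115, adjusted p = 1.82e-07, edgeR), whereas Lhx1 did not pass the test. Gm27199, which overlaps an exon of Lhx5 on the opposite strand, rose over the same days (2.42 ± 0.168, adjusted p = 8.69e-11, edgeR) to 3.17 to 5.36 CPM. Without the strand setting, reads of Lhx5 and Gm27199 in the overlap cannot be told apart. Tlx1os, antisense to Tlx1, had no count in any of the 49 libraries.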

How the data were processed

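Gene expression was measured by stranded polyA RNA sequencing. The authors deposited raw counts, and per the submitters' processing notes they used featureCounts 1.6.1 after STAR 2.6.0b on GRCm38.p6. Annotation release and strand setting were not found in the sources used here. The labels describe 8 samples per condition, of which 7 were analysed here. The table had 52550 gene rows and 0 columns of other series. Of 27 symbols turned into dates, 26 were restored.

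The test was the robust quasi-likelihood F test of edgeR 4.0.16 (R 4.3.3), after TMM scaling and filterByExpr by group, over all genes passing the filter, with Benjamini-Hochberg adjustment at 0.05. The 3 control groups were fitted together for the time course, the 3 groups of a day for the drugs, and all 42 later libraries for the change between days. Standard errors are |log2 fold change| over the square root of F, and log2 CPM used a prior count of 2.

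The members and the 24 gene lists were chosen with earlier results of these data known. Named genes are all members, up to 3 list genes with the smallest p among those described, paralogs and other genes needed to describe a list. Per member, the 3 genes with the highest r on day 13 among those searched are also named. Alternatives were DESeq2 1.42.0, its size factors, no count filter, other sets of libraries, a replicate block and each library left out. Intervals of counting error were not needed beside replicates, and precision is limited by the spread between 7 libraries.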

Additional observations from a re-analysis of the deposited data

Results flagged for a closer look

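Of 63 sets of 7 libraries (9 members in 7 groups), 5 had 1 library whose gap to its nearest neighbour was over Dixon's 95% critical value as a share of the whole range, and chance gives about 1 in 20. Fluoxetine day 13 replicate 4 was set apart for Lbx1, at 13.5 CPM with the next library at 6.71 CPM, and for Lhx9, at 1.72 CPM with the next at 0.778 CPM. Venlafaxine day 7 replicate 5 was low for Lhx5, at 17.8 CPM beside 23.3 CPM. Day 0 replicate 4 was high for Lbx1, at 0.437 CPM beside 0.16 CPM, and day 7 control replicate 2 was high for Lhx9, at 0.564 CPM beside 0.269 CPM; both are values of few counts. The effect of venlafaxine on Tlx1 differed between day 13 and day 7 by -1.64 on the log2 scale, in the fit across all genes; Tlx1 was chosen for its day 13 value, so this is a description.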

How the results depend on the processing

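Members called on day 13 with fluoxetine numbered 1, and 2 with DESeq2, 5 with all 49 libraries in 1 fit, 0 with a replicate block, 0 without fluoxetine replicates 5, 6 and 7, and 0 to 3 over single omissions. With venlafaxine the 2 members past the threshold became 0 without a count filter, 0 with the replicate block, 4 with all 49 libraries, and 0 to 3 over single omissions. Between drugs the count of 1 became 2 with all 49 libraries, 0 without fluoxetine replicates 5, 6 and 7, and 1 to 2 over single omissions. For the change of the venlafaxine effect between days the count of 1 became 0 without a filter, with the block or with only the groups compared, 2 with DESeq2 or without the farthest libraries, and 3 with all 49. The labels do not say whether a replicate number marks a shared culture or day, and correlations cannot settle this. Same-number correlations ran from -0.34 to 0.19 on day 7 (18 pairs) and -0.52 to 0.28 on day 13 (19 pairs). Their means were -0.031 and -0.116, beside 0.005 and 0.017 for pairs of other numbers.

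Signs turned for small differences. From day 7 to day 13 of the controls Lbx1 became 0.0214 with size factors and 0.0303 with DESeq2, and Tlx1 0.0119 and 0.00713; over single omissions they ran from -0.163 to 0.135 and from -0.258 to 0.136. With day 7 fluoxetine Tlx1 became 0.0225 with the block and ran from -0.196 to 0.0956, Lhx1 from -0.101 to 0.0631 and Lhx5 from -0.0983 to 0.035. With day 13 fluoxetine Lhx1 became -0.0404 without the farthest libraries and -0.0788 without fluoxetine replicates 5, 6 and 7, and ran from -0.0374 to 0.0732 and Lhx5 from -0.0895 to 0.0674 over omissions. Between drugs on day 7 Pou4f1 became 0.0153 with the block and ran from -0.12 to 0.000518; on day 13 Lhx9 became -0.0261 with the block and -0.0828 without the farthest libraries and ran from -0.364 to 0.399, and Pax2 became 0.104 without the 3 fluoxetine libraries. For the change of the fluoxetine effect Lhx5 became -0.00666 with size factors, -0.00633 with DESeq2, -0.00685 with all 49 and -0.0986 without the farthest libraries, where Lhx1 became -0.0297. Over single omissions Lbx1 and Pou4f1 with day 7 venlafaxine ran from -0.00416 to 0.208 and from -0.153 to 0.0174, Pax8 between drugs on day 7 from -0.0737 to 0.0641, and Tlx1 between drugs on day 13 from -0.127 to 0.31. The causes were not tested. Single omissions were not run for the changes between days. Over all gene values and alternatives, 1947 were classed as the same, 55 turned sign, 16 lost and 11 gained the threshold. For most comparisons the same meant an unchanged direction and side of the threshold. For venlafaxine against control, its change between days, and Pax8 and Tlx1 between drugs, it meant a shift smaller than the SD of the reference group. Crossings of the threshold, and sign turns of values outside it, are therefore not counted for these.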
